A study of Mus musculus with 2 samples.

Results

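The 10 genes described here encode transcription factors that set mesenchymal and skeletal cell fate: *Snai1*, *Snai2*, *Twist1*, *Twist2*, *Zeb1*, *Zeb2*, *Prrx1*, *Sox9*, *Runx1* and *Runx2*. They were taken by symbol, and all 10 were found among the 24532 genes of the count table and the 14158 genes with a TPM value. The cells were cardiac myofibroblasts, the collagen-producing cells of the injured heart, from C57BL/6 mice (C57BL/6J in the study's methods) 3 days after myocardial infarction (MI). In the study's protocol, myofibroblasts are the plate-attached, CD45-negative cells of the infarcted part of the heart, and how many animals gave the cells of these cultures is not stated. Both cultures received 12.5 nM siRNA by lipofection, which was a control sequence in siCtrl and targeted *Vgll3*, a cofactor of TEAD transcription factors, in si*Vgll3*, and RNA was collected 72 h later. Each condition has 1 library, so no difference below has a replicate check and no test of the conditions could be made.

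The SNAIL proteins (SNAI1 and SNAI2), the TWIST proteins and the ZEB proteins are known for driving the epithelial-to-mesenchymal transition (EMT), in which epithelial cells lose their junctions and become migratory. PRRX1 is a homeodomain protein of embryonic limb and craniofacial mesenchyme and of fibroblasts. SOX9 is the master regulator of cartilage formation and RUNX2 that of bone formation, while RUNX1 is best known from blood formation. Activated fibroblasts of the injured heart are known to express many of these factors.

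Reads counted on genes numbered 140815237 in siCtrl and 125789276 in si*Vgll3*. *Vgll3* itself was at 202 TPM without and 84.0 TPM with its siRNA, so 41.6% of the siCtrl level was left. TPM is the deposited expression level per gene, scaled for transcript length and library size, and M is the log2 ratio of the si*Vgll3* TPM to the siCtrl TPM. A is log2 of the mean TPM of both libraries, and 11754 genes had A > 0 and an M. A gene was called lower at M < −0.5 and higher at M > 0.5, with A > 0. Square brackets give the 95% Clopper-Pearson interval of the read ratio, shifted onto M, which covers counting error only. It compares the libraries and says nothing of how cultures vary. Among the markers of other cell types, *Ptprc* (CD45), *Itgam* and *Adgre1* had 0 reads in both libraries, which allows up to 3 reads each, and the 10 leukocyte markers summed to 15.0 TPM (siCtrl) and 8.46 TPM (si*Vgll3*), against 17610 TPM and 12694 TPM for 10 fibroblast markers. Summed markers came to 27.2 and 22.8 TPM for 7 endothelial genes, 60.2 and 106 TPM for 7 mural genes, 7.45 and 4.39 TPM for 5 Schwann cell genes, and 60.0 and 10.4 TPM for 8 cardiomyocyte genes. All of the TPM listed for the cardiomyocyte genes was *Tnnt2*, while *Myh6*, *Actn2* and *Ryr2* had 0 reads. Other sums also rested largely on single genes. Mural *Cnn1* was at 44.0 and 96.6 TPM, and *Abcc9* was also higher, while *Notch3*, *Cspg4*, *Myh11* and *Rgs5* were lower. Leukocyte *Lyz2* was at 10.9 and 3.13 TPM, with *Cd68* also lower and *Csf1r* and *Cd14* higher. Endothelial *Tek* was at 19.5 and 13.4 TPM, with *Emcn*, *Vwf* and *Tie1* also lower and *Pecam1*, *Cdh5* and *Kdr* higher.

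In these libraries the 10 factors were expressed at much the same level with and without *Vgll3* knockdown, apart from *Zeb2*, which was 1.56-fold higher in si*Vgll3*, and *Snai2*, which was at 74.8% of its siCtrl level. Of the 10 factors, 1 was called higher (*Zeb2*), 0 were called lower and 9 lay between the thresholds. Over all genes with A > 0, 5.73% were called higher and 11.4% were called lower, so 1 and 0 of 10 are close to those shares. The median M of the factors was −0.06, beside −0.05 over all genes with A > 0. In all, 8 of the 10 factors had an M within 0.25 of 0, as did 59.9% of all genes. The 10 factors summed to 639 TPM without knockdown and 636 TPM with it. In bulk RNA, fewer cells that express a factor and less of its mRNA per cell cannot be told apart.

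**Figure D1:**
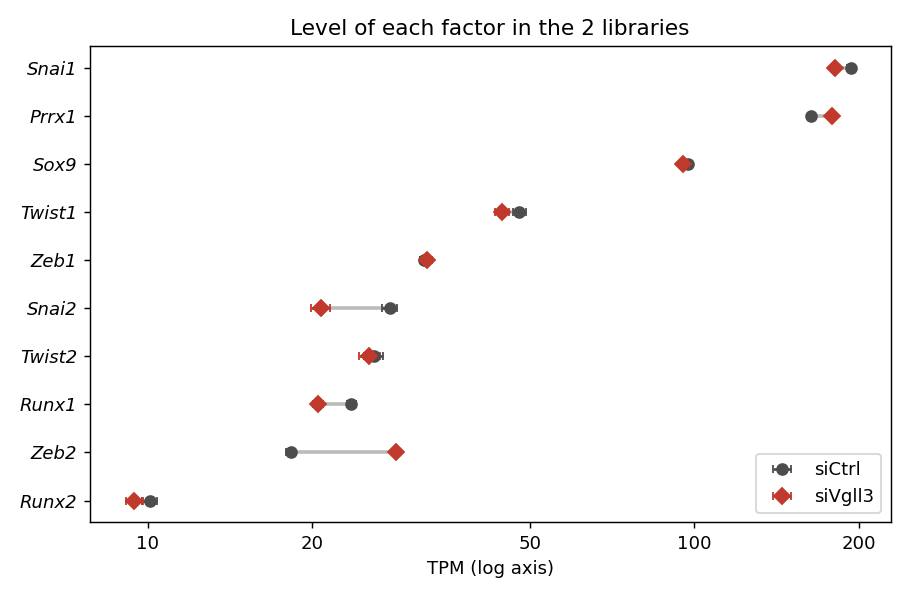
Level of each of the 10 factors in TPM (log axis) in siCtrl (grey circles) and si*Vgll3* (red diamonds), 1 library each, with 95% Poisson counting intervals. *Zeb2* shows the widest gap, from 18.3 to 28.5 TPM, and *Snai2* the next, from 27.7 to 20.7 TPM, while the symbols of *Sox9*, *Zeb1* and *Twist2* overlap.

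*Snai1*, *Prrx1* and *Sox9* were the most abundant of the factors in both libraries and together made up 71.0% of the factors' summed TPM in siCtrl and 71.4% in si*Vgll3*. *Snai1* was at 193 TPM in siCtrl, above 94.0% of the genes with a TPM value, and *Runx2* was lowest at 10.1 TPM. The span from the highest to the lowest factor was 19.2-fold in siCtrl and 19.1-fold in si*Vgll3*. In siCtrl the order after *Sox9* was *Twist1*, *Zeb1*, *Snai2*, *Twist2*, *Runx1*, *Zeb2* and *Runx2*. *Snai2* and *Twist2* were the only neighbours in this order whose 95% Poisson counting intervals overlapped. In si*Vgll3*, *Zeb2* had moved from rank 9 to rank 6 and *Snai2* from rank 6 to rank 8, and *Snai1* could no longer be told from *Prrx1*, nor *Snai2* from *Runx1*, by counting error. Each factor had at least 2006 reads in each library, so that the half-width of the counting interval of M was 0.09 at most.

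Among the EMT factors, *Snai1* (NCBI gene 20613, chromosome 2, 167538195 to 167542814, GRCm38) encodes a zinc-finger repressor that binds E-boxes, among them those of the E-cadherin gene. It was covered by 19963 siCtrl reads and 17274 si*Vgll3* reads, at 193 and 181 TPM, an M of −0.10 [−0.13, −0.07]. The difference exceeded counting error but came to 6.50% of the siCtrl level, and 72.0% of all genes with A > 0 differed by as much or more.

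*Snai2* (NCBI gene 20583, chromosome 16, 14705852 to 14709395), or Slug, is a close relative of *Snai1* with the same kind of target site and roles in neural crest and wound repair. It did not reach the threshold for lower genes, with 3559 siCtrl reads and 2465 si*Vgll3* reads, at 27.7 and 20.7 TPM. Its M of −0.42 [−0.49, −0.34] was the lowest among the 10 factors, and 14.6% of all genes had an M as low or lower. The lower bound of its counting interval lay just inside the threshold of −0.5, so *Snai2* was not called even at the edge of that interval.

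The TWIST genes encode basic helix-loop-helix proteins that promote EMT and restrain bone formation by binding RUNX2. *Twist1* (NCBI gene 22160, chromosome 12, 33957671 to 33959831) had 4977 siCtrl and 4284 si*Vgll3* reads, at 47.8 and 44.5 TPM, an M of −0.10 [−0.16, −0.05]. *Twist2* (NCBI gene 13345, chromosome 1, 91801461 to 91848034) had 2208 and 2006 reads, at 25.9 and 25.4 TPM, an M of −0.03 [−0.11, 0.06]. The interval of *Twist2* spanned 0, and its M turned to 0.02 when CPM, reads scaled by the library total alone, took the place of TPM. Both TWIST genes thus lay well inside the thresholds, and an antisense transcript, *Gm29100*, overlaps exons of *Twist2* in GENCODE.

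The ZEB genes encode large zinc-finger and homeodomain repressors that act late in EMT, and ZEB2 is also known as SMAD-interacting protein 1. *Zeb1* (NCBI gene 21417) had 11865 siCtrl reads and 11143 si*Vgll3* reads, at 32.0 and 32.5 TPM. Its M was 0.02 [−0.02, 0.06], with an interval that spanned 0. With CPM it was 0.07 [0.03, 0.11], wholly above 0. *Zeb2* (NCBI gene 24136, chromosome 2, 44983512 to 45117442) was counted at 10603 reads in the control library and 15325 in the knockdown library, at 18.3 and 28.5 TPM. Its M of 0.64 [0.61, 0.68] was the only one of the 10 past a threshold, with the whole counting interval above 0.5, which held for 3.76% of all genes with A > 0. An M as high or higher than that of *Zeb2* is uncommon in these libraries, since 96.1% of all genes with A > 0 had an M at or below it. An antisense gene, *Zeb2os*, overlaps exons of *Zeb2*, and it was counted separately at 379 siCtrl reads and 407 si*Vgll3* reads, far below the *Zeb2* reads in both. The library kit keeps the strand, but whether the counting used it is not given in the sources used here, so reads of the overlapping exons may have gone to either gene.

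**Figure D2:**
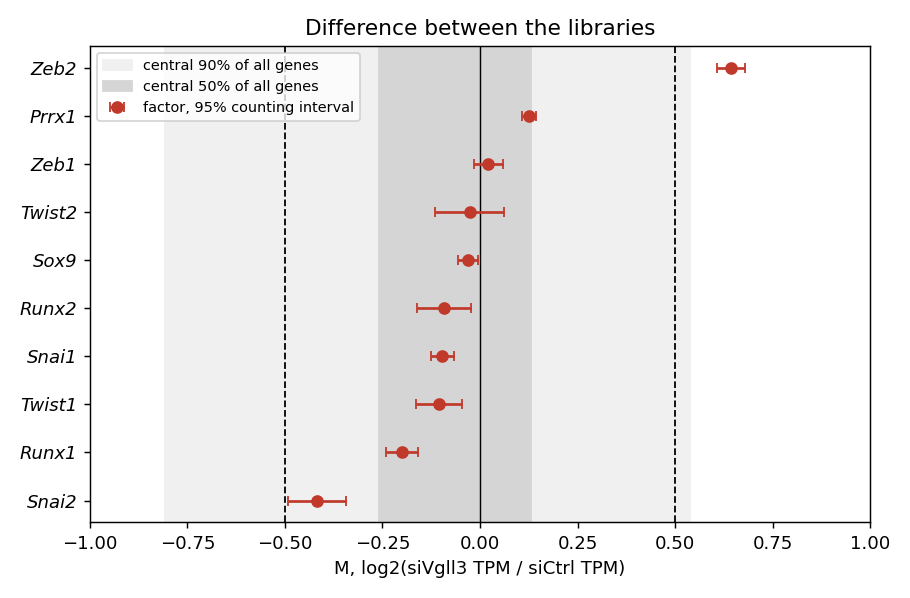
M, the log2 ratio of si*Vgll3* TPM to siCtrl TPM, for each factor with its 95% counting interval (red), over the central 50% (dark band) and the central 90% (light band) of all genes with A > 0; dashed lines mark −0.5 and 0.5. *Zeb2* at 0.64 lies right of the upper threshold and beyond the light band, *Snai2* at −0.42 lies inside the light band, and *Runx1*, *Twist1*, *Snai1*, *Runx2*, *Sox9*, *Twist2*, *Zeb1* and *Prrx1* lie within the dark band.

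*Prrx1* (NCBI gene 18933, chromosome 1, 163245119 to 163315145) encodes the homeodomain protein of limb and fibroblast mesenchyme. It had the most reads of the factors, 49760 (siCtrl) and 49973 (si*Vgll3*), at 163 and 178 TPM, an M of 0.13 [0.11, 0.14]. With *Zeb2* it was 1 of 2 factors whose counting interval lay wholly above 0, or 1 of 3 with CPM, where *Zeb1* joined them. The gap was 9.12% of the siCtrl level and 64.5% of all genes differed by as much or more. Its relative *Prrx2* was far lower, at 7.73 and 5.63 TPM, and had an M of −0.46 [−0.65, −0.27].

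*Sox9* (NCBI gene 20682, chromosome 11, 112782210 to 112787757) encodes the SRY-related factor of chondrocytes. It was covered by 25754 siCtrl reads and 23331 si*Vgll3* reads, at 97.3 and 95.2 TPM, an M of −0.03 [−0.06, −0.01]. This direction turned with the scaling, to an M of 0.02 with CPM. Its partners in cartilage, *Sox5* and *Sox6*, were low, with *Sox5* at 3.10 and 2.44 TPM and *Sox6* at 1.20 and 1.48 TPM (siCtrl and si*Vgll3*).

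The RUNX genes encode runt-domain proteins that bind DNA together with CBFB. *Runx1* (NCBI gene 12394, chromosome 16, 92601466 to 92826074) had 10653 siCtrl reads and 8548 si*Vgll3* reads, at 23.6 and 20.5 TPM, an M of −0.20 [−0.24, −0.16]. *Runx2* (NCBI gene 12393, chromosome 17, 44495987 to 44814797), the factor of osteoblasts, had 3685 and 3107 reads, at 10.1 and 9.46 TPM, an M of −0.09 [−0.16, −0.02]. Both were lower in si*Vgll3* by less than the threshold. The difference exceeded counting error for *Runx1*, while that of *Runx2* no longer did when M was centred on the median of all genes, at −0.05 [−0.12, 0.02]. In all, 48.3% of genes with A > 0 differed by as much as *Runx1* or more. *Runx3* had only 12 siCtrl reads and 25 si*Vgll3* reads. *Cbfb*, the shared partner, was at 86.2 and 94.6 TPM. Antisense transcripts overlap exons of *Runx1* (*Gm26626*) and of *Runx2* (*Runx2os1*), with the same doubt about strand as for *Zeb2*.

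**Figure D3:**
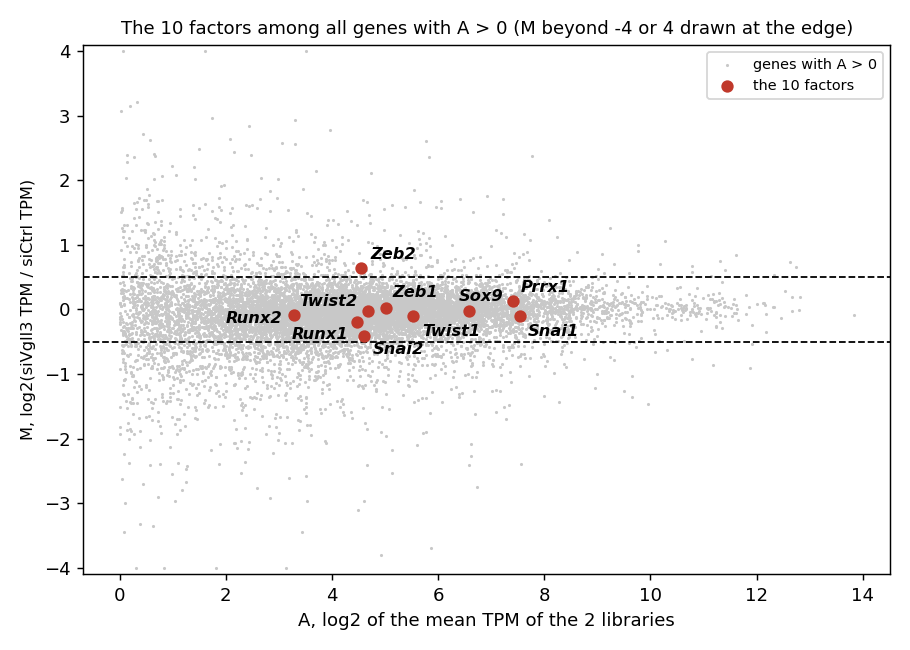
M against A for all 11754 genes with A > 0 (grey) and for the 10 factors (red), with dashed lines at −0.5 and 0.5. The factors span A from 3.29 (*Runx2*) to 7.55 (*Snai1*), and only *Zeb2* lies above the upper line, with *Snai2* just inside the lower line.

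Since 8 of the factors form related pairs, the balance within each pair was described next. *Zeb1* and *Zeb2* together came to 50.3 TPM without and 61.0 TPM with knockdown. *Zeb2* made up 36.3% of this in siCtrl and 46.7% in si*Vgll3*, and the ratio of *Zeb1* to *Zeb2* went from 1.75 to 1.14. M of *Zeb2* exceeded that of *Zeb1* by 0.62 [0.57, 0.67], an interval from the summed counting variances of the 4 read counts. The ZEB genes thus parted the most of the 4 pairs. *Snai1* and *Snai2* came to 221 and 201 TPM, and *Snai2* made up 12.5% of it in siCtrl and 10.3% in si*Vgll3*. M of *Snai2* was below that of *Snai1*, with a difference of −0.32 [−0.40, −0.24], so the SNAIL genes also parted by more than counting error. *Twist2* made up 35.1% of the TWIST sum in siCtrl and 36.4% in si*Vgll3*, and the difference in M, 0.08 [−0.03, 0.18], was not beyond counting error. *Runx2* made up 30.0% of the sum of *Runx1* and *Runx2* in siCtrl and 31.6% in si*Vgll3*, a difference in M of 0.11 [0.03, 0.19], which became 0.07 [−0.01, 0.15] with CPM and so was not beyond counting error on that scale. In each pair the more abundant gene in siCtrl was also the more abundant in si*Vgll3*. Reads in conserved stretches of a pair could be shared between its genes, and how such reads were counted is not given in the sources used here.

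**Figure D4:**
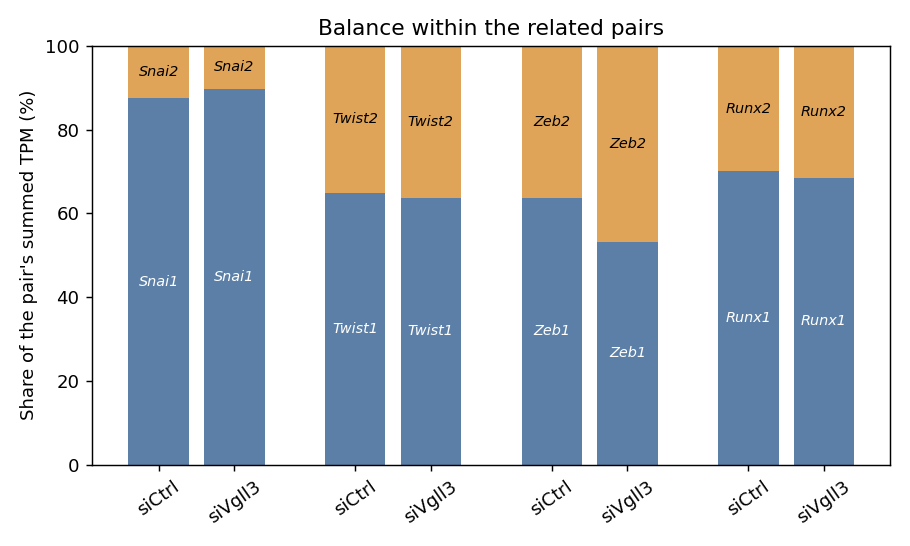
Share of the summed TPM held by each gene of the 4 related pairs in siCtrl and si*Vgll3* (bars from 0 to 100%; blue, first gene; orange, second gene; 1 library per bar). The share of *Zeb2* goes from 36.3% to 46.7%, and the other pairs shift by less, *Snai2* from 12.5% to 10.3%.

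The promoters of the factors were searched for short motifs. They are shown because VGLL proteins bind TEAD factors, SNAIL and ZEB proteins bind E-boxes, and RUNX proteins bind the RUNX motif. In the study, knockdown of *Tead1* left fibrotic genes of cardiac myofibroblasts unaffected. The paper proposes that the fibrotic pathway of VGLL3 does not involve TEAD1. RefSeq promoter windows of GRCm38.p6, from 250 bases before to 50 after a start site, were matched for 7 of the 10 factors, with 11 windows. *Snai2*, *Zeb1* and *Sox9* were not matched. The TEAD motif GGAATG, on either strand, lay in 3 windows, of *Prrx1*, *Runx1* and *Zeb2*, and in that of *Vgll3*. It is a common motif, held by 14.7% of all 32851 windows. The SNAIL and ZEB E-box CACCTG lay in windows of *Snai1* and *Runx1*, beside 20.2% of all windows. The RUNX motif TGTGGT lay in those of *Runx1* and *Runx2*, beside 16.8%. In both genes it occurs as an adjoining pair within an exon, which begins 28 (*Runx1*) or 23 (*Runx2*) bases after a start site. *Runx2* has a further match 80 bases before the same start site. The sites are given 5′ to 3′ on the strand of the gene, with the motif, or its reverse complement, in capitals.
*Zeb2* TEAD motif, chr2:45110419-45110444, minus strand, in an exon: ccgccgtgtgCATTCCctcatacggt
*Prrx1* TEAD motif, chr1:163313815-163313840, minus strand, outside GENCODE exons: ctactgcaagGGAATGataattagac
*Runx1* TEAD motif, chr16:92697369-92697394, minus strand, outside GENCODE exons: acgagctgagGGAATGgaattcctcg
*Vgll3* TEAD motif, chr16:65815116-65815141, plus strand, outside GENCODE exons: cgcctccccaCATTCCggctaccctg
*Snai1* E-box, chr2:167538059-167538084, plus strand, outside GENCODE exons: agcccaggcgCACCTGctccggtctc
*Runx1* RUNX motifs, chr16:92826026-92826053, minus strand, in an exon: ataaacaACCACAgaACCACAagttggg
*Runx2* RUNX motifs, chr17:44814584-44814611, minus strand, in an exon: acaaacaACCACAgaACCACAagtgcgg
The adjoining RUNX motifs of *Runx1* and *Runx2* have the same spacing and the same bases between them. Across all genes with A > 0 and a window, the median M was −0.05 over 1340 genes with the TEAD motif and −0.04 over 8023 genes without it. Of genes with the TEAD motif, 6.04% were called higher, and of those without it 5.25%. The same shares were 6.17% and 5.17% for the E-box, and 5.59% and 5.32% for the RUNX motif. A higher share with a motif was thus not particular to the TEAD motif. The M of the factors that hold the TEAD motif ranged from −0.20 (*Runx1*) to 0.64 (*Zeb2*). A match is a description of the sequence and not of binding.

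The genes around the factors were read from 9 lists, written with the matrix results of these libraries known. Of 15 relatives and partners of the SNAIL, TWIST and ZEB proteins with A > 0, 3 were called lower and 0 higher, with a median M of −0.01. The 3 were *Id4* (M −0.71), an inhibitor of helix-loop-helix proteins, *Tcf4* (−0.60), an E-protein partner of TWIST, and *Tcf21* (−0.58), a factor of resident cardiac fibroblasts. The other E-proteins held close to their siCtrl level, with *Tcf3* at 0.04 and *Tcf12* at −0.01. Of 11 further mesenchymal factors only *Shox2* was called, at −1.19 [−1.32, −1.06], at 10.0 and 4.38 TPM. Its reads, 1479 and 788, fell by less than its TPM, a gap between the scales that the interval does not cover. Of 3 SOX9 partners with A > 0, 0 were called, the most abundant being *Sox4* at 57.5 and 77.5 TPM. Of 10 RUNX partners and bone factors, 1 was called, *Atf4* at −0.56. *Sp7*, which acts downstream of RUNX2 in osteoblasts, had 0 reads in both libraries. Over these 4 lists, 5 genes were called lower and 0 higher among 39, and the 12.8% lower is close to the 11.4% of all genes. At a threshold of 1 in place of 0.5, only *Shox2* was lower, by M from TPM.

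Genes of cartilage, bone and tendon, the tissues that several of the factors build, are given next. With *Sox9* inside the thresholds, 7 of 9 cartilage genes with A > 0 were called lower and 0 higher, beside 11.4% of all genes called lower, with a median M of −0.97. Without the filter on A, 10 were lower and 3 higher. Higher were *Prg4* (lubricin) at 1.55 [1.23, 1.87], at 0.416 and 1.22 TPM, and *Hapln1* and *Cilp*, whose intervals spanned 0. Among the lower genes *Matn4* (matrilin 4) had an M of −4.09, *Fmod* (fibromodulin) −3.11, *Matn3* −1.76 and *Comp* −1.18, and *Col2a1*, the main collagen of cartilage, was at 25.1 and 14.8 TPM. All of these encode matrix proteins. Of the 10 fibroblast markers, 5 were also called lower and 1 higher, beside 11.4% and 5.73% of all genes. The 5 were the matrix genes *Col1a1* (−0.90), *Col1a2* (−0.53), *Col3a1* (−0.86), *Lum* (−1.23) and *Postn* (−1.22), while *Dcn* (−0.26) was not called. *Thy1* (0.72) was called higher, and *Acta2* (0.23), *Ddr2* (0.11) and *Pdgfra* (0.05) lay above 0 and were not called. Lower values were thus not particular to the cartilage genes. *Runx2* likewise lay inside the thresholds, and the 10 bone genes with A > 0 went both ways, with 3 called lower and 3 higher. The lower genes were *Smpd3* at −1.70, *Mgp*, an inhibitor of calcification, at −1.46 and *Enpp1* at −0.87. The higher genes were *Spp1* (osteopontin) at 1.00, *Alpl* at 0.70 and *Tnfsf11* at 0.63. *Bglap* (osteocalcin) and *Ibsp* had 0 reads in both libraries. Of 9 tendon genes with A > 0, 5 were called lower and 1 higher, beside 11.4% and 5.73% of all genes, and *Scx*, the tendon factor, was at 1.67 and 1.76 TPM. *Fmod* is in this list too, beside *Thbs2* at −0.92 and *Mkx* at −0.77. The tendon gene called higher was *Tnmd* at 0.77 [0.48, 1.07].

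Epithelial genes, which the EMT factors are known to repress, reached A > 0 for only 10 of the 26 listed. *Cdh1* (E-cadherin) had 3 siCtrl and 0 si*Vgll3* reads, *Epcam* had 6 and 0, and *Esrp1* and *Grhl2* had 0 in both. Of the 10 epithelial genes that reached it, 4 were called higher and 0 lower, beside 5.73% of all genes called higher, with a median M of 0.34. The keratin *Krt19* went from 2.86 to 16.8 TPM (M 2.56) and *Krt7* from 1.62 to 6.15 TPM (1.93). The desmosomal *Pkp2* went from 1.86 to 3.94 TPM (1.08) and the junctional *F11r* from 6.75 to 10.7 TPM (0.66). The keratins *Krt8* (−0.20) and *Krt18* (−0.12) and the junctional *Tjp1* (−0.19) and *Jup* (−0.20) lay below 0 and were not called. *Muc1* (0.49) and *Esrp2* (0.18) lay above 0, also not called. Among 7 markers of epicardial and mesothelial cells, which share *Krt19*, *Msln* was called higher (M 1.91) and *Wt1* (−0.67) and *Upk3b* (−1.68) lower, and the list summed to 61.5 and 51.8 TPM. The part of such cells in the keratin values was not tested. The 19 mesenchymal genes with A > 0 went both ways, with 5 called lower and 4 higher and a median M of −0.08. *Fap* was lowest at −1.32, with *Pdgfrb* at −0.74, *Mmp2* at −0.71 and *Mmp14* at −0.66, while *Vim* was at 0.29 and *Cdh2* (N-cadherin) at −0.06.

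**Figure D5:**
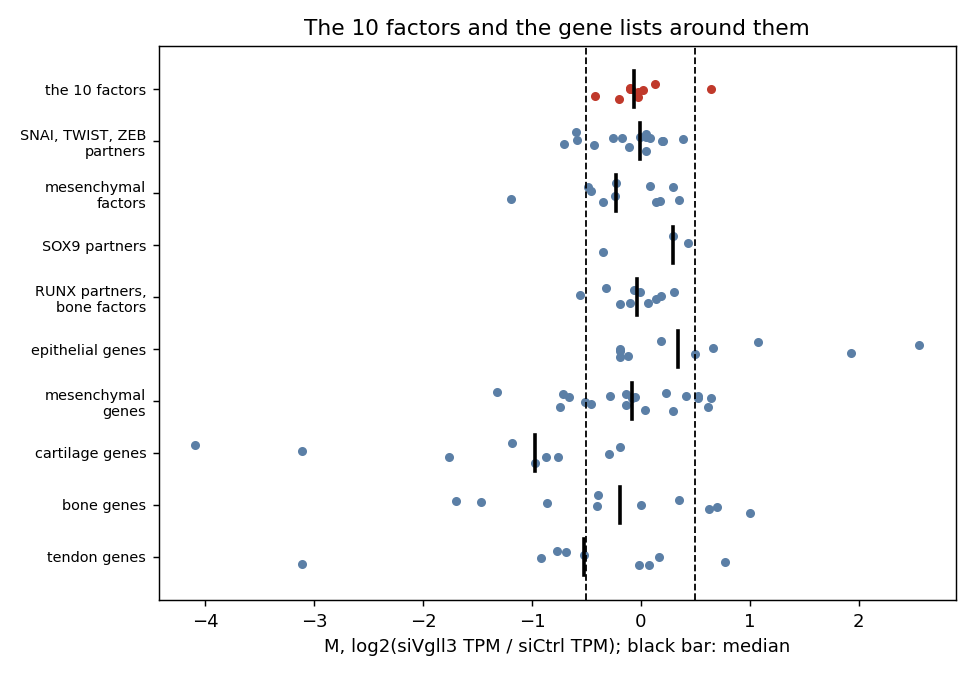
M of each gene with A > 0 (points, spread at random in height within a row) for the 10 factors (red) and the 9 lists around them (blue), with black bars at the medians and dashed lines at −0.5 and 0.5. The factors centre on −0.06 and the cartilage genes on −0.97, and the epithelial genes reach up to 2.56.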

How the data were processed

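RNA of 1 siCtrl and 1 si*Vgll3* culture was sequenced from TruSeq Stranded mRNA LT libraries on a NovaSeq instrument. Per the labels and the study's methods, the authors used FastQC, Trimmomatic, HISAT2 (mm10) and StringTie, whose versions are not given in the sources used here. Raw read counts, whole numbers per gene, were deposited by the authors for both libraries in 1 table. TPM values, scaled for gene length and library size by the authors, come in a table per library. Levels and M were taken from TPM, and depth and intervals from the counts. Intervals cover counting error only, and because reads are not independent molecules they may be too narrow even for that.

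Members and lists were chosen with earlier results of these data known. Named genes are the 10 factors, *Vgll3*, up to 4 genes of each list with the largest M past 0.5 by their whole interval, or else the 2 most abundant, and others chosen after their values were seen. With 2 libraries no gene of like pattern can be named. Positions and promoters are from RefSeq (GRCm38.p6, the mm10 assembly), overlaps from GENCODE vM21. The interval was tested on simulated independent Poisson counts, which cannot check its shift onto TPM or reads that are not independent. Python 3.11.15, scipy 1.17.1, edgeR 4.0.16 and DESeq2 1.42.0 (scaling of the counts only) were used. Alternatives were CPM, TMM, DESeq2's size factors, 0.1 or 1 TPM added, centred M, other filters and other thresholds. With no replicates, no model was fitted.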

Additional observations from a re-analysis of the deposited data

How the results depend on the processing

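No paired analysis was possible because only 1 library stands for a condition. The count of factors called lower stayed at 0 under all 11 alternatives, and that of factors called higher stayed at 1 except that none passed 1 in place of 0.5 (0 factors), since M of *Zeb2* ranged from 0.62 to 0.69 over the 6 alternatives that change M. CPM, TMM, DESeq2's size factors and centring each raised the median M of all genes, by 0.04 to 0.05, and turned *Sox9* and *Twist2* from just below 0 to just above it, at most to 0.02 for both. They raised *Zeb1* to between 0.06 and 0.07, wholly above 0 by its counting interval, so that 3 factors lay above 0 in place of 2. The interval of *Runx2* spanned 0 when centred and that of *Twist1* with CPM, at −0.05 [−0.11, 0.01]. In an alternative chosen after seeing the data, the difference between *Runx2* and *Runx1* was 0.07 with CPM, TMM or DESeq2's size factors, with an interval that spanned 0, while the other pairs kept their side of 0 or still spanned it. They also moved M of *Vgll3*, to −1.21 with CPM, −1.22 with TMM, −1.23 with DESeq2's size factors and −1.22 when centred. M of *Snai2* ranged from −0.42 to −0.37. Over all genes, 393 were higher with A > 2, 1159 with at least 10 reads in each library, 1428 without a filter on A, 207 with a threshold of 1 and 442 with the whole interval above 0.5, in place of 674, while 2103 were lower without a filter on A and 384 with a threshold of 1, in place of 1341. Of 198 recomputed list counts, 169 stayed within 1.5 times the first value. Epithelial genes called higher numbered 9 without a filter on A and 2 with A > 2, in place of 4. Cartilage genes called lower numbered 4 with A > 2 or a threshold of 1, and 10 without a filter on A, in place of 7. Those called higher numbered 2 with at least 10 reads in each library and 3 without a filter on A, in place of 0. Over the 4 lists of partners, 1 gene was lower with a threshold of 1, in place of 5, and 2 were higher with at least 10 reads in each library and 3 without a filter on A, in place of 0. Tendon genes called lower numbered 3 with A > 2, with 1 TPM added or by the whole interval, and 1 with a threshold of 1, in place of 5. A threshold of 1 left 1 mesenchymal gene lower and 0 higher, and 0 bone genes higher. Depth does not limit the 10 factors, but with 1 library each, variation between cultures is unknown.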
